A study of Mus musculus with 2 samples.

Results

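The 8 cathepsin genes *Ctsa*, *Ctsb*, *Ctsc*, *Ctsd*, *Ctsh*, *Ctsl*, *Ctss* and *Ctsz* were followed through the bone marrow cell classes of 1 WT and 1 Cko mouse and set against the stefin A (*Stfa*) genes. They were taken by name and not by a cut on their levels, though with earlier results of these data known. They are 8 of the 6001 genes listed in both expression matrices. Sc-RNA-Seq was run on non-erythrocyte bone marrow cells (BMCs) from the fore- and hindlimbs of C57BL6/J mice at postnatal day 21. The Cko mouse is S1P f/f;Osx-Cre, in which an Osterix promoter drives an Osx1-GFP::Cre fusion in the osteoblast lineage. The fusion removes the floxed exon of *Mbtps1*, the gene of the site-1 protease (S1P). The paper also reports loss of this exon in sorted neutrophils of every Cko mouse it examined for it. It proposes that Osx-Cre is active in hematopoietic cells as well. By the study's methods the WT controls carry the floxed alleles (S1P f/f). The question put to the data was where proteases that stefins could inhibit are expressed, relative to the cells that express *Stfa* genes, in the WT and in the Cko.

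Cathepsins are proteases that work mainly in lysosomes and in related granules. Stefins are small cytosolic inhibitors of the cystatin superfamily, and they bind the active site cleft of papain-like cysteine proteases tightly and reversibly. 6 of the 8 genes encode such cysteine cathepsins (*Ctsb*, *Ctsc*, *Ctsh*, *Ctsl*, *Ctss* and *Ctsz*). The label of stefin targets does not hold for the other 2, since cathepsin A is a serine carboxypeptidase and cathepsin D an aspartic protease. They were kept in the description and left out of the summed cysteine cathepsins. In myeloid cells, cathepsin C activates the granule serine proteases, and cathepsins S and L trim the invariant chain of MHC class II.

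The WT library held 6271 cells and 56382459 UMIs over its listed genes, and the Cko library 3662 cells and 34447224 UMIs, with medians of 6977 and 7440 UMIs per cell. 28 barcodes occurred in both libraries. For each class and library the UMIs of a gene were added up and given per 1000000 UMIs of that class (CPM), with exact Poisson 95% intervals. Intervals cover counting error only. With 1 library per genotype no difference between WT and Cko has a replicate check, and no p-value was computed. Cells were clustered without the cathepsin, *Stfa* and cystatin genes, and clusters were named "-like" from marker genes. Neutrophil-like cells (immature 474 in the WT and 634 in the Cko, mature 170 and 551) were set mainly against monocyte-like cells (286 and 271). A cluster led by *Wfdc17*, *Sirpb1c*, *H2-Aa* and *Cd74* (47 and 282 cells) carried markers of both dendritic cells and monocytes and was left unnamed. Granulocyte-monocyte progenitor-like (GMP-like) cells formed an *Elane*-led (330 and 189) and an *Mpo*-led cluster (205 and 258). There were 3594 erythroid-like cells in the WT library and 557 in the Cko library. Counts lie at the 3′ end, outside the deleted exon, so *Mbtps1* (31.9 CPM in the WT, 31.2 in the Cko) does not check the genotype.

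The 8 genes lie on 6 chromosomes and share no locus with the *Stfa* genes. By the GENCODE annotation of GRCm38, *Ctsa* lies at chr2:164832873-164841032 (+) and *Ctsz* at chr2:174427493-174439039 (−). *Ctsc* lies at chr7:88278085-88310888 (+) and *Ctsd* at chr7:142375911-142388038 (−). *Ctss* lies at chr3:95526786-95556403 (+), *Ctsh* at chr9:90054152-90076089 (+), *Ctsl* at chr13:64359337-64370890 (−) and *Ctsb* at chr14:63122462-63145923 (+). All 8 listed *Stfa* genes lie within chr16:36156811-36455392. *Ctsd*, *Ctsl* and *Ctss* overlap another annotated locus and the *Stfa* genes resemble each other closely, so reads could be split or shared between loci there.

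The start regions of the genes with the most contrasting patterns are shown to place the results that follow. *Ctss* and *Ctsc* were abundant in monocyte-like and nearly absent from neutrophil-like cells, *Ctsd* was similar in both with the stages pooled, and *Stfa3* had the opposite pattern to the first pair. RefSeq start regions (GRCm38.p6) were given for 6 of the 8 cathepsins and 4 of the 8 *Stfa* genes. The bases before the start are printed on the strand of the gene, for *Ctss* (chr3:95526536-95526785, +), *Ctsc* (chr7:88277835-88278084, +), *Stfa3* (chr16:36455393-36455642, −) and, as the stretch outside the annotated gene, *Ctsd* (chr7:142388039-142388077, −). Capitals mark either of 2 motifs that were searched on both strands.
Ctss: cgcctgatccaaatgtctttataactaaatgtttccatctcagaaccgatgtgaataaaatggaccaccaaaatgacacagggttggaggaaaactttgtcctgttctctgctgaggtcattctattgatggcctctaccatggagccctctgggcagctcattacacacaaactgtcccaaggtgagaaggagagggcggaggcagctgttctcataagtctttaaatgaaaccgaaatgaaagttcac
Ctsc: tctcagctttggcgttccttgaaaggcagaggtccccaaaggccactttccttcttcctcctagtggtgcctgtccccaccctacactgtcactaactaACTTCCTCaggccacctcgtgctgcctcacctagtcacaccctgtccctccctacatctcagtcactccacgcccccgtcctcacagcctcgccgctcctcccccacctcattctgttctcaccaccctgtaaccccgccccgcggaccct
Ctsd: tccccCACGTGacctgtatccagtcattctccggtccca
Stfa3: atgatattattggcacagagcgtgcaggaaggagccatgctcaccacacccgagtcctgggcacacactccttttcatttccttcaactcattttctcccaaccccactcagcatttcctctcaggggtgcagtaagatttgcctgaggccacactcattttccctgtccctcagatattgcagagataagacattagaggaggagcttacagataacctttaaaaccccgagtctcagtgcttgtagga

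The capitals in *Ctsd* are an E-box, CACGTG, of the kind that lysosomal gene regulators bind, and a second match lay 98 bases before the RefSeq start. This motif stood in 6.02% of 32851 start regions, and among the cathepsins also in *Ctsa* and *Ctsl*. The capitals in *Ctsc* are a PU.1 core, GAGGAAGT, read here from the other strand as ACTTCCTC, 151 bases before the start. It stood in 2.44% of start regions and in no other cathepsin with an entry. Neither string occurred before the starts of *Ctss*, *Ctsz* or the 4 *Stfa* genes. These are letter matches and say nothing of binding.

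In the WT the cysteine cathepsins were highest in the unnamed cluster and in macrophage-, stromal/endothelial- and monocyte-like cells. They were low in the neutrophil-like cells, which held most of the *Stfa* UMIs. Summed over the 6 genes, the WT level was 3651 CPM in the unnamed cluster, 3606 in macrophage-like (50 cells), 2472 in stromal/endothelial-like (28 cells) and 2310 in monocyte-like cells. It was 855 CPM in the *Mpo*-led and 449 in the *Elane*-led GMP-like cells, 305 in erythroid-like, 256 in neutrophil-like and 212 in pro/pre-B-like cells. The Cko level was 3284 CPM in the unnamed cluster, 1894 in monocyte-like, 766 and 436 in the GMP-like and 227 in neutrophil-like cells. The order was not the same in both libraries. B cell-like cells stood beside the *Elane*-led GMP-like cells in the WT (438 CPM) and above them in the Cko (570 CPM), and the erythroid-like level of the Cko (229 CPM) lay beside the neutrophil-like one. Pro/pre-B-like cells had 203 CPM in the Cko. The plot of each gene by class shows that this order hides several distinct patterns.

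**Figure D1:**
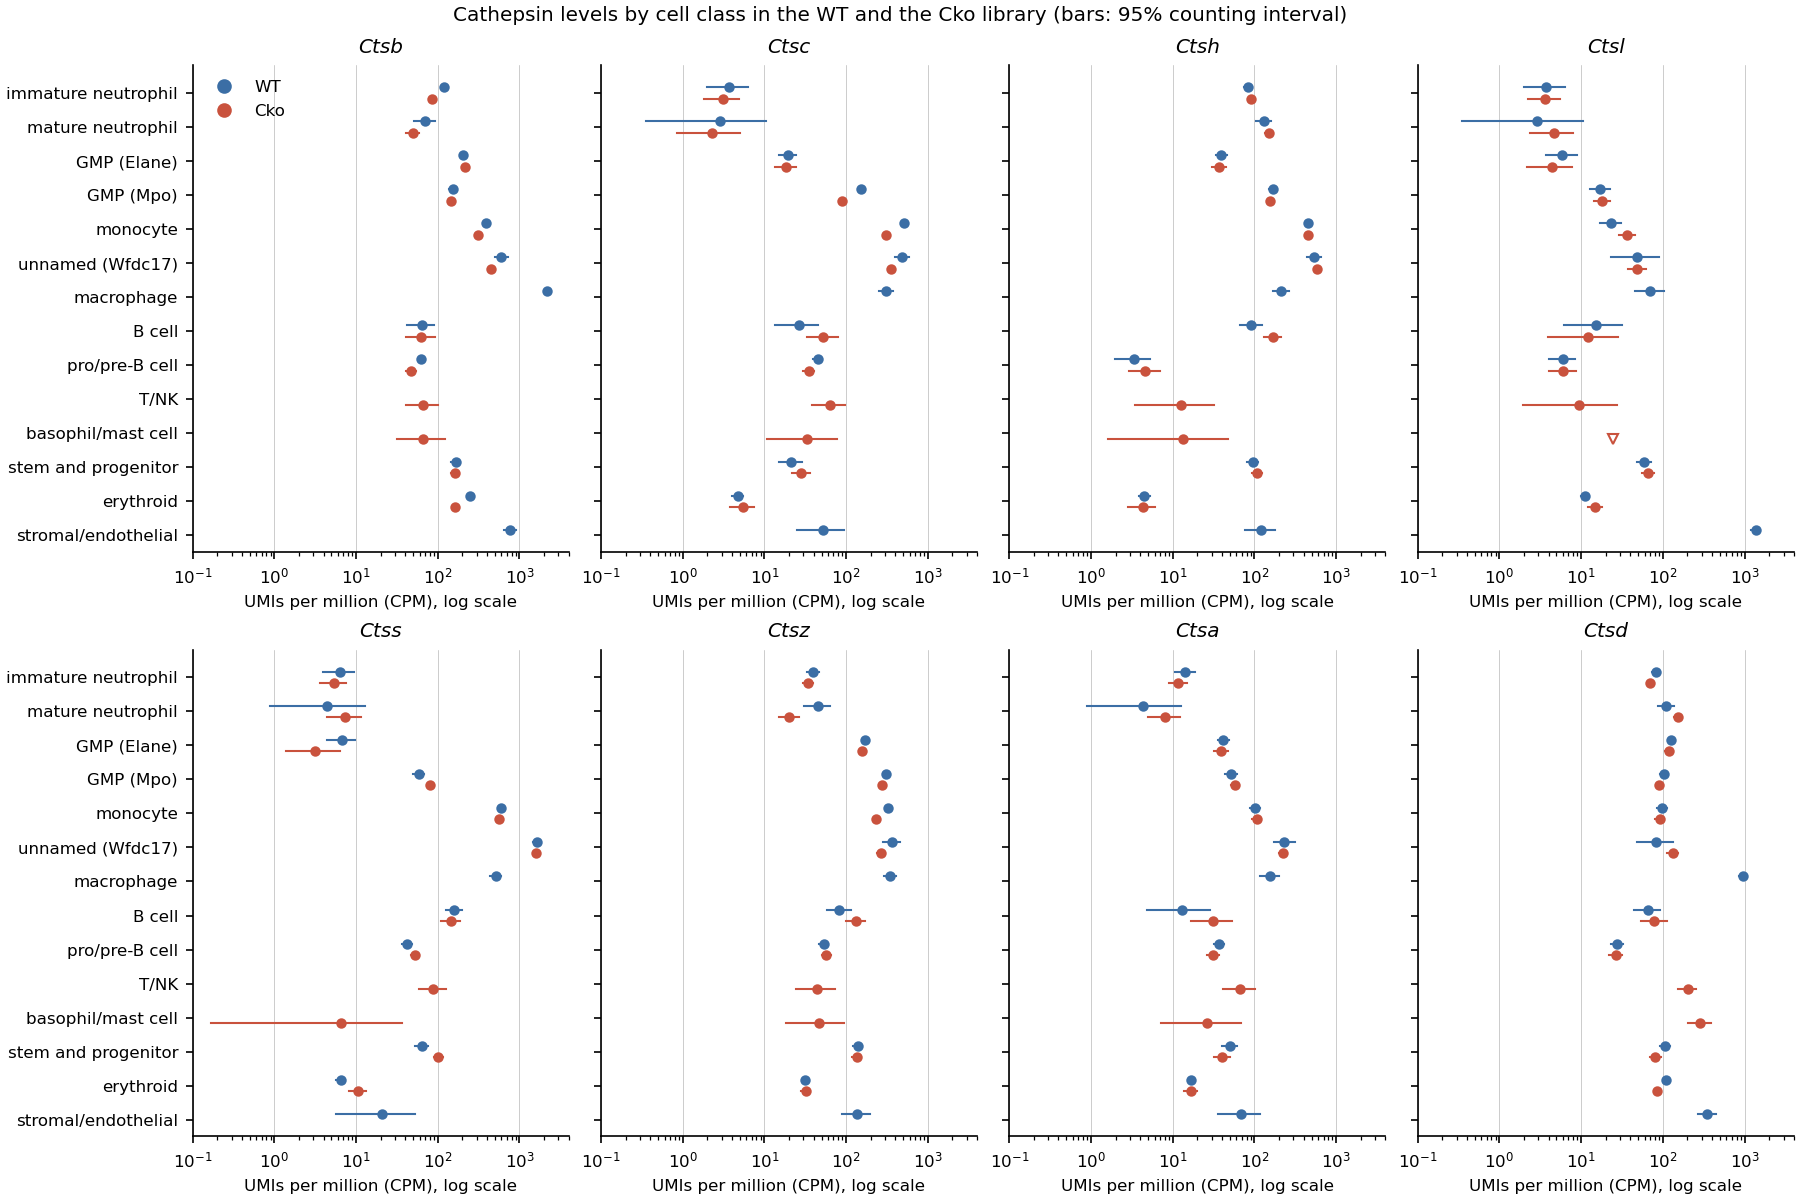
Level of each of the 8 cathepsin genes (CPM, log axis) in each cell class, WT in blue and Cko in red, with bars for the 95% counting interval and an open triangle for the upper limit that a count of 0 allows. *Ctsc* and *Ctss* fall from at least 304 CPM in monocyte-like cells to under 10 in neutrophil-like cells, whereas *Ctsd* stays between 69.9 and 153 CPM in the monocyte- and neutrophil-like classes.

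*Ctss*, whose product degrades the invariant chain in antigen-presenting cells and works at neutral pH, was the most abundant cathepsin of the unnamed cluster, at 1617 CPM (WT) and 1587 CPM (Cko). Monocyte-like cells had 598 and 564 CPM, and B cell-like cells 159 and 144 CPM. In neutrophil-like cells it was 5.97 CPM in the WT (25 UMIs) and 5.95 in the Cko (50 UMIs). The neutrophil-like level was 0.010 of the monocyte-like level in the WT (95% interval 0.006 to 0.015) and 0.011 in the Cko (0.008 to 0.014). After each cell was thinned to 3000 UMIs, 79.4% of WT and 79.3% of Cko monocyte-like cells held a *Ctss* UMI (93.4% and 96.3% before thinning). The shares were 0.932% and 1.27% of neutrophil-like cells (2.64% and 2.95% before thinning) and 1.56% and 2.33% of erythroid-like cells. The shares of neutrophil-like cells were thus below those of erythroid-like cells. The erythroid-like cells, however, include a cluster also led by the neutrophil genes *Retnlg* and *Mmp9*, with 49.3 CPM (WT) and 95.1 CPM (Cko) of *Ctss*. Whether the few UMIs in neutrophil-like cells are background or expression was not tested.

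*Ctsc*, the dipeptidyl peptidase that activates neutrophil elastase, proteinase 3 and cathepsin G, divided the myeloid cells in the same way. It was 518 CPM in monocyte-like cells of the WT and 304 in those of the Cko, 486 and 358 in the unnamed cluster, and 308 in WT macrophage-like cells. The *Mpo*-led GMP-like cells had 154 and 90.0 CPM and the *Elane*-led ones 19.3 and 18.3. In neutrophil-like cells 15 UMIs (3.58 CPM) were left in the WT and 24 (2.86 CPM) in the Cko, or 0.007 (0.004 to 0.011) and 0.009 (0.006 to 0.014) of the monocyte-like level. Its substrates were counted on both sides of this divide. *Elane* stood at 573 and 466 CPM in neutrophil-like cells and at 968 and 679 in monocyte-like cells. *Prtn3* stood at 363 and 300.0 against 1078 and 1010. *Elane* also led a GMP-like cluster, and the part of free RNA in these levels was not tested.

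*Ctsh*, an aminopeptidase, was the most abundant cysteine cathepsin of mature neutrophil-like cells. Its level was 83.2 CPM in immature and 131 in mature neutrophil-like cells of the WT, and 91.8 and 149 in the Cko. Monocyte-like cells had 457 and 449 CPM, the unnamed cluster 534 and 577, and B cell-like cells 91.6 and 168. It was nearly absent from pro/pre-B-like (3.33 and 4.64 CPM) and erythroid-like cells (4.50 and 4.27). The share of neutrophil-like cells with a *Ctsh* UMI, thinned, was 23.4% for the WT and 28.8% for the Cko (42.7% and 50.9% before thinning). Among erythroid-like cells the thinned share was 1.22% and 0.898%. The part of free RNA in these shares was not tested.

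*Ctsb*, an endopeptidase that also removes dipeptides, was the most widely expressed cysteine cathepsin. In the WT it reached 2158 CPM in macrophage-like and 774 in stromal/endothelial-like cells, then 602 in the unnamed cluster, 385 in monocyte-like and 247 in erythroid-like cells. Neutrophil-like cells had 112 CPM (WT) and 74.6 CPM (Cko), with the immature above the mature cells in both (120 against 69.6 CPM and 85.8 against 49.6). B cell-like (63.3 CPM) and pro/pre-B-like cells (63.1 CPM) ended the WT order, and these last neighbours did not differ beyond their intervals. The 7 erythroid-like clusters were uneven. They ranged from 111 to 458 CPM of *Ctsb* in the WT and from 71.6 to 262 in the Cko, and each was lower in the Cko.

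*Ctsz*, a carboxypeptidase that removes single residues, was spread across the early myeloid cells. The WT levels of the unnamed cluster (364 CPM), macrophage-like (348), monocyte-like (329) and *Mpo*-led GMP-like cells (306) formed a row in which neighbours overlapped. *Elane*-led GMP-like cells had 173 CPM and neutrophil-like cells 40.1. In the Cko the *Mpo*-led GMP-like cells stood beside the unnamed cluster with 277 against 267 CPM, the monocyte-like cells had 233 and the neutrophil-like cells 30.0.

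*Ctsl*, a broad endopeptidase of lysosomes, was highest in stromal/endothelial-like cells of the WT, a class with too few cells in the Cko (18) for a level. In the WT it was 1371 CPM in stromal/endothelial-like cells, 69.6 in macrophage-like, 59.1 in stem and progenitor-like and 23.2 in monocyte-like cells. In the Cko it was 65.4 CPM in stem and progenitor-like cells, the highest level given there. Neutrophil-like cells held 15 UMIs in the WT (3.58 CPM) and 33 in the Cko (3.93 CPM), and the thinned shares of cells, 0.466% and 1.43%, were below those of erythroid-like cells (2.09% and 2.15%).

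The pair that stefins do not inhibit behaved unlike each other. *Ctsa*, which also protects lysosomal sialidase and β-galactosidase, resembled *Ctsc*, with 233 CPM in the unnamed cluster, 102 in monocyte-like and 12.7 in neutrophil-like cells of the WT and 225, 106 and 10.6 in the Cko. *Ctsd*, the main aspartic protease of lysosomes, was 948 CPM in WT macrophage-like cells and varied less among the other myeloid classes. It was 127 CPM in *Elane*-led GMP-like, 102 in *Mpo*-led GMP-like, 97.8 in monocyte-like and 87.9 in neutrophil-like cells. With both neutrophil-like stages pooled, *Ctsd* was the only one of the 8 genes whose ratio to the monocyte-like level had an interval including 1, at 0.899 (0.753 to 1.077) in the WT and 1.049 (0.903 to 1.223) in the Cko. By stage this held in the WT, but in the Cko *Ctsd* was below the monocyte-like level in immature cells (0.768, 0.650 to 0.908) and above it in mature cells (1.68, 1.42 to 1.99).

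Measured against all other cells of its library, the monocyte-like class held 6 of the 8 cathepsins at 1.5-fold or higher in the WT, where 28.2% of 5770 genes did so, and 6 of 8 in the Cko, where 21.5% of 5681 genes did so. In macrophage-like cells of the WT all 8 passed that fold, against 20.5% of genes, and in the unnamed cluster of the Cko all 8 did, against 22.9% of genes. In neutrophil-like cells the counts were near or below those shares. In the WT 1 of 8, *Ctsh*, passed it in immature (1.97-fold, against 13.7% of genes) and in mature cells (2.99-fold, against 13.6%). In the Cko 0 of 8 passed it in immature cells, against 7.99% of genes, with *Ctsh* at 0.751. In mature cells 1 of 8 did, against 10.1%, namely *Ctsd* at 1.83-fold, with *Ctsh* at 1.30. The other cells differed in make-up, with 3594 erythroid-like cells in the WT and 557 in the Cko. The folds of WT and Cko thus have unlike references. The *Ctsh* level itself was 83.2 (WT) and 91.8 CPM (Cko) in immature cells.

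Between neutrophil-like and monocyte-like cells the *Stfa* genes were distributed the other way round. Their summed level in neutrophil-like cells was 4957 CPM (WT) and 12025 CPM (Cko), against 89.0 and 393 CPM in monocyte-like cells. The unnamed cluster, high in cysteine cathepsins, had 1894 and 1327 CPM of *Stfa*. B cell-like cells had 1298 and 4331 CPM, and *Elane*-led GMP-like cells 739 and 2399. Immature and mature neutrophil-like cells together held 71.7% of all *Stfa* UMIs of the WT library and 85.6% of those of the Cko library. The same cells held 4.22% and 9.16% of the cysteine cathepsin UMIs. In the WT, 41.7% of the cysteine cathepsin UMIs lay in erythroid-like cells, mostly as *Ctsb*, and 17.7% in monocyte-like cells. In the Cko, 22.1% lay in monocyte-like cells and 21.7% in the unnamed cluster. Summed cysteine cathepsins in neutrophil-like cells were 0.111 of the monocyte-like level in the WT (0.104 to 0.118, log2 −3.17) and 0.120 in the Cko (0.113 to 0.126, log2 −3.06). Summed *Stfa* were 55.7-fold (48.0 to 65.1) and 30.6-fold (28.7 to 32.7) above it.

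**Figure D2:**
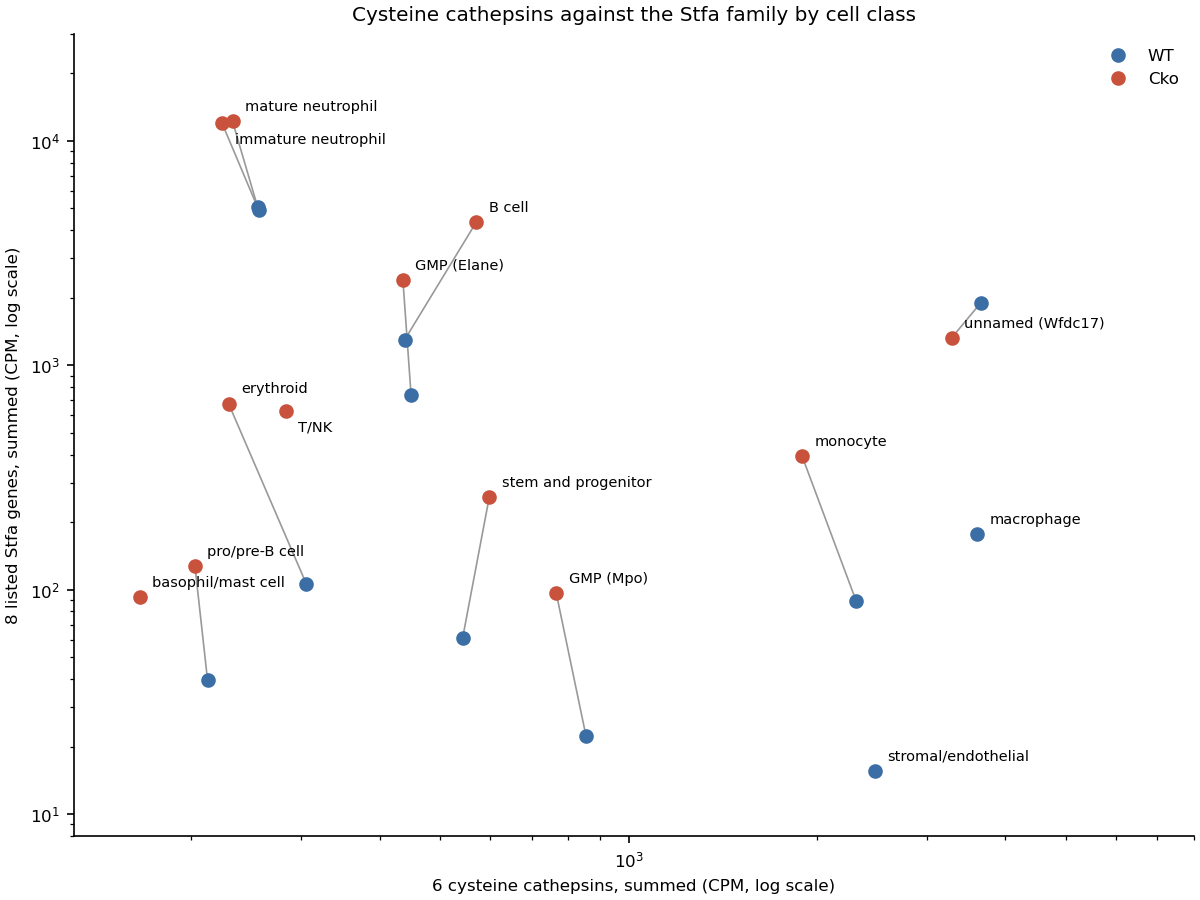
Summed level of the 6 cysteine cathepsins (x axis) and of the 8 listed *Stfa* genes (y axis), in CPM on log axes, with 1 point per cell class and library, and a line joining the WT (blue) and Cko (red) points of a class given in both. The immature and mature neutrophil-like cells sit at the top left (224 to 256 CPM of cathepsins, 4936 to 12197 CPM of *Stfa*), and monocyte-like cells at the lower right (1894 and 2310 CPM of cathepsins).

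*Stfa* UMIs often came from few cells, also within the neutrophil-like classes. The 5 richest of the 170 mature neutrophil-like cells of the WT held 67.3% of the *Stfa* UMIs of their class, so its WT level and the Cko/WT ratio of *Stfa* in mature cells rest largely on them. This share was 14.5% in the mature cells of the Cko, and 22.5% and 10.1% in the immature cells of the WT and the Cko. In other classes the 5 richest cells held 81.0% of the *Stfa* UMIs of the 74 B cell-like cells of the WT and 80.5% of those of the 74 of the Cko. They held 99.2% of those of the WT unnamed cluster, 63.4% of those of the Cko one, and 62.4% and 68.5% of those of monocyte-like cells. Cysteine cathepsin UMIs were spread evenly over monocyte-like cells, where the 5 richest held 4.03% and 4.42%. The thinned share of monocyte-like cells with an *Stfa* UMI was 11.2% (WT) and 25.1% (Cko), and that of pro/pre-B-like cells, which should lack them, 6.19% and 21.4% (18.5% and 49.1%, and 10.6% and 44.8%, before thinning). In immature neutrophil-like cells it was 48.7% and 76.0%. Over the 12 classes given in each library, the rank correlation of summed cysteine cathepsins with summed *Stfa* was −0.24 in the WT and 0.05 in the Cko. This is a description over classes that share a library. The highest value for a single cathepsin was that of *Ctsh* (0.08 and 0.22), the lowest that of *Ctsl* in the WT (−0.56).

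Within the neutrophil-like cells, the cathepsins were counted in cells with and without an *Stfa* UMI. In immature cells thinned to 3000 UMIs, *Ctsb* was found in 36.4% of the 231 WT cells with an *Stfa* UMI (30.2% to 42.9%) and in 28.0% of the 243 without (22.4% to 34.1%). In the Cko these shares were 24.7% of 482 cells (20.9% to 28.8%) and 17.1% of 152 (11.5% to 24.1%). The intervals overlapped in both libraries. For *Ctsh* the shares were 18.2% against 23.0% in the WT and 25.3% against 25.7% in the Cko, with overlapping intervals. In mature cells of the Cko the *Ctsh* shares were 28.5% of 365 cells with (23.9% to 33.4%) and 40.9% of 186 cells without an *Stfa* UMI (33.7% to 48.3%), intervals that do not overlap, whereas in the WT they were 30.2% of 63 and 31.8% of 107. For *Ctsb* the shares of mature cells, with against without an *Stfa* UMI, were 15.9% against 9.68% (Cko) and 27.0% against 16.8% (WT). For the summed cysteine cathepsins they were 46.6% against 47.3% (Cko) and 55.6% against 52.3% (WT). In immature cells the sums were 50.4% against 40.8% (Cko) and 55.4% against 49.8% (WT). All these intervals overlapped. Besides *Ctsh* in mature Cko cells, no cathepsin had intervals apart at either stage in either library. Transcripts of the inhibitors and of *Ctsb* and *Ctsh* were thus counted under the same barcodes. The part of free RNA in this was not tested, and some pro/pre-B-like cells also held an *Stfa* UMI. In the Cko the *Ctsb* level of mature cells (49.6 CPM, 41.4 to 59.0) lay beside that of pro/pre-B-like cells (47.2, 41.3 to 53.6), the lowest class. That of immature cells (85.8, 78.4 to 93.6) lay above it.

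Between immature and mature neutrophil-like cells the composition of the cathepsins shifted while their sum did not. The mature to immature ratio of the sum was 0.997 in the WT and 1.04 in the Cko. *Ctsb* was lower in the mature cells, at 0.580 (WT) and 0.579 (Cko), and *Ctsh* higher, at 1.57 and 1.62. *Ctsd* was also higher in the mature cells, at 1.32 (1.01 to 1.71) in the WT and 2.18 (1.90 to 2.52) in the Cko. *Ctsz* was 1.15 in the WT and 0.581 in the Cko, with 31 UMIs in the mature WT cells.

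Between WT and Cko, the cathepsins of neutrophil-like cells differed less than the *Stfa* genes. Of the 5 cathepsins with at least 100 UMIs in this class, 0 differed by 1.5-fold or more between the libraries, where 8.07% of 4263 genes did so. All 7 *Stfa* genes counted that often were higher in the Cko by at least that fold, where 4.08% of genes were, from 1.76-fold for *Stfa1* to 6.77-fold for *Stfa2*. The summed *Stfa* level was 2.43-fold higher in the Cko (2.39 to 2.46), and the summed cysteine cathepsins were 0.886 of the WT (0.821 to 0.955, log2 −0.18). *Ctsb* went from 112 CPM (468 UMIs) in the WT to 74.6 (627 UMIs) in the Cko, a ratio of 0.667 (0.591 to 0.754) that lay just inside the fold and passed it with other settings of the clustering and filters, which brought the count to 1 or 2. *Ctsz* had a ratio of 0.747 (0.612 to 0.914), from 168 and 252 UMIs. *Ctsh* was the one cysteine cathepsin with a higher level in the Cko by its interval, at 1.203 (1.07 to 1.36), with the stages pooled. Within immature (1.10, 0.955 to 1.28) and mature cells (1.14, 0.904 to 1.45) its interval included 1, and mature cells, which had more *Ctsh*, were 170 of 644 in the WT and 551 of 1185 in the Cko. *Ctsd* (1.09, 0.960 to 1.23) and *Ctsa* (0.837, 0.589 to 1.199) had intervals that include 1. *Ctsc*, *Ctsl* and *Ctss*, with 39 to 75 UMIs over both libraries, were not detectable as different at this depth. The median log2 ratio was −0.26 for the 5 cathepsins and −0.05 for all genes.

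Hemoglobin UMIs, a sign of free erythroid RNA or of mixed droplets, differed between the libraries. At least 1% of UMIs were of hemoglobin genes in 8 of 644 neutrophil-like cells of the WT and 3 of 1185 of the Cko. Without these cells the *Ctsb* ratio was 0.679 and that of the sum 0.890. In the *Ctsb*-rich erythroid-like cells the Cko level was lower as well (162 against 247 CPM, 0.656). *Ctsb* was also below the WT in immature neutrophil-like (0.714), monocyte-like (0.797), unnamed (0.742) and pro/pre-B-like cells (0.747), all with intervals under 1, but its interval included 1 in *Elane*-led (1.05, 0.937 to 1.17) and *Mpo*-led GMP-like (0.960, 0.852 to 1.08), stem and progenitor-like (0.971, 0.828 to 1.14), B cell-like (0.985, 0.557 to 1.73) and mature neutrophil-like cells. All genes had median log2 ratios of −0.14 in stem and progenitor-like, −0.13 in erythroid-like and −0.11 in pro/pre-B-like cells, and closer to 0 in the other classes.

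**Figure D3:**
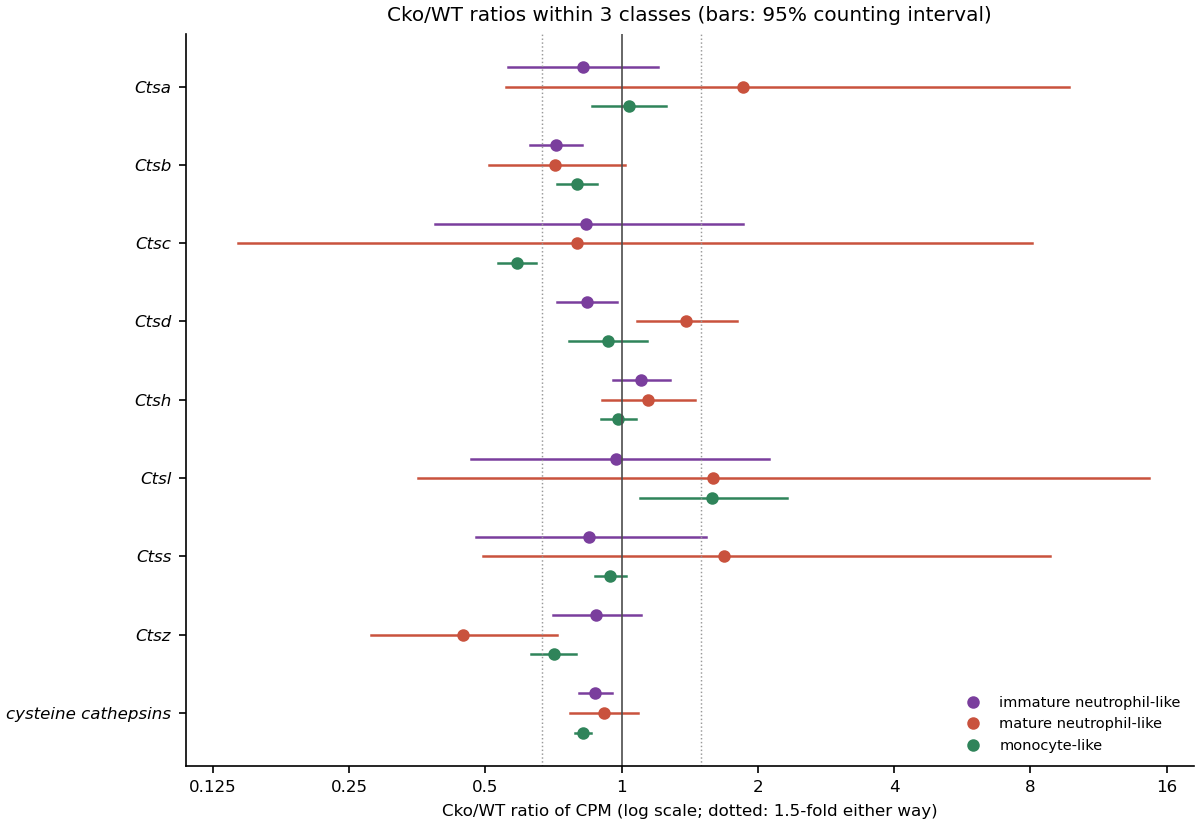
Ratio of the Cko to the WT level of each cathepsin and of the summed cysteine cathepsins (log axis) in immature neutrophil-like, mature neutrophil-like and monocyte-like cells, with 95% counting intervals and dotted lines at 1.5-fold either way. The cathepsin sums (0.875, 0.912 and 0.820) lie just below 1, the monocyte-like *Ctsc* (0.587) and mature neutrophil-like *Ctsz* (0.445) lie past the lower line, and the widest intervals belong to genes with few UMIs in mature neutrophil-like cells.

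Splitting the neutrophil-like cells by stage separated *Ctsd* and *Ctsz*. *Ctsd* was lower in the Cko in immature cells (83.5 to 69.9 CPM, 0.838, 0.719 to 0.977) and higher in mature cells (110 to 153 CPM, 1.39, 1.08 to 1.79). *Ctsz* was similar in immature cells (39.2 and 34.4 CPM, 0.879, 0.704 to 1.10) and lower in mature cells (45.0 to 20.01 CPM, 0.445, 0.280 to 0.718), from 31 and 52 UMIs. *Ctsb* had the same ratio at both stages (0.714 and 0.713), with an interval up to 1.01 in the mature cells.

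In monocyte-like cells, kept apart from the unnamed cluster, 3 cysteine cathepsins were lower in the Cko. 2 of the 8 genes differed by 1.5-fold or more, where 8.74% of 3832 genes did so. *Ctsc* was lower, from 518 to 304 CPM (1007 and 738 UMIs), a ratio of 0.587 (0.533 to 0.646). *Ctsl* was higher, from 23.2 to 36.7 CPM, with few UMIs (45 and 89) and a wide interval (1.59, 1.09 to 2.32). *Ctsz* (0.708, 0.631 to 0.795) and *Ctsb* (0.797, 0.719 to 0.883) were lower within the fold. *Ctss* (0.943, 0.872 to 1.02), *Ctsh* (0.983, 0.898 to 1.08), *Ctsd* (0.932, 0.764 to 1.14) and *Ctsa* (1.04, 0.860 to 1.26) had intervals that include 1. The sum was 0.820 of the WT (0.787 to 0.854, log2 −0.29), but this difference was absent or turned where the clustering joined the unnamed cluster to this class (log2 −0.028 at a lower resolution and 0.032 with each library clustered on its own). Under these 2 settings *Ctss* (log2 0.42 and 0.50) and *Ctsa* (0.38 and 0.46) were higher in the Cko, with intervals above 0. *Ctsc* (−0.67 and −0.62) and *Ctsz* (−0.44 and −0.42) stayed lower, and the interval of *Ctsb* included 0 in the second (−0.19 and −0.059). At least 1% hemoglobin UMIs were seen in 11 of 286 WT and 2 of 271 Cko cells of this class, and without them the log2 ratios of *Ctsc* (−0.78), *Ctsz* (−0.52), *Ctsb* (−0.34) and the sum (−0.31) were as low.

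*Ctsc* was also lower in the *Mpo*-led GMP-like cells, but not by its interval in *Elane*-led GMP-like (0.951, 0.644 to 1.39) or stem and progenitor-like cells (1.34, 0.877 to 2.07). In *Mpo*-led GMP-like cells 1 of the 8 cathepsins passed the fold, where 6.44% of 4736 genes did so, and this was *Ctsc* (154 to 90.0 CPM, 0.584, 0.511 to 0.667). *Ctss* was higher there (58.6 to 81.5 CPM, 1.39, 1.16 to 1.67), as in stem and progenitor-like (63.5 to 102 CPM, 1.61, 1.27 to 2.04) and pro/pre-B-like cells (42.2 to 52.8 CPM, 1.25, 1.04 to 1.501). The same held in erythroid-like cells, where *Ctss* was low (6.49 to 10.6 CPM, 1.63, 1.23 to 2.14). It passed the fold in stem and progenitor-like cells, as did 15.1% of 4074 genes, and in erythroid-like cells, as did 12.6% of 5244. The part of free RNA in these ratios was not tested. The erythroid-like *Ctss* UMIs were at most 16.9 CPM in 6 of the 7 clusters and at 49.3 CPM (WT) and 95.1 CPM (Cko) in 1 cluster that was also led by the neutrophil genes *Retnlg* and *Mmp9*. In the unnamed cluster 1 of the 7 cathepsins counted often enough passed the fold, where 22.1% of 1773 genes did so. It was *Ctsd* (82.5 to 132 CPM, 1.60), on 17 WT UMIs and with an interval from 0.970 to 2.80. In the *Elane*-led GMP-like cells the sum was 0.970 of the WT (0.899 to 1.05).

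Over whole libraries the ratios of several cathepsins were larger than within the main classes. *Ctss* was 3.01-fold and *Ctsh* 2.62-fold higher in the Cko, *Ctsl*, *Ctsc*, *Ctsa* and *Ctsz* between 1.46- and 1.63-fold higher, *Ctsd* 0.826 and *Ctsb* 0.662 of the WT. Erythroid-like cells gave 61.5% of all UMIs in the WT and 19.7% in the Cko. To separate the 2 sources, the WT levels of each class were weighted with the Cko shares of UMIs, and the reverse. Class shares alone gave 2.89-fold for *Ctss*, 2.52-fold for *Ctsh* and 2.26-fold for *Ctsc*, and levels alone gave 1.197, 1.07 and 0.756. For *Ctsl* the levels gave more (1.54) than the shares (1.12). This weighting took in every class, also those under 20 cells in a library, such as the stromal/endothelial-like cells of the Cko. The *Ctsl* values thus rest in part on classes for which no Cko level is given. For the *Stfa* sum both parts counted, with 2.73-fold from shares and 3.03-fold from levels. Outside erythroid-like cells the interval of the cathepsin sum included 1 (1.02, 0.996 to 1.04), with *Ctss* (1.55), *Ctsh* (1.33) and *Ctsl* (1.17) above and *Ctsb* (0.756), *Ctsc* (0.768) and *Ctsz* (0.882) below 1, each by its interval. In a comparison of unsorted BMCs, more cells of a class and more RNA per cell could not be told apart.

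**Figure D4:**
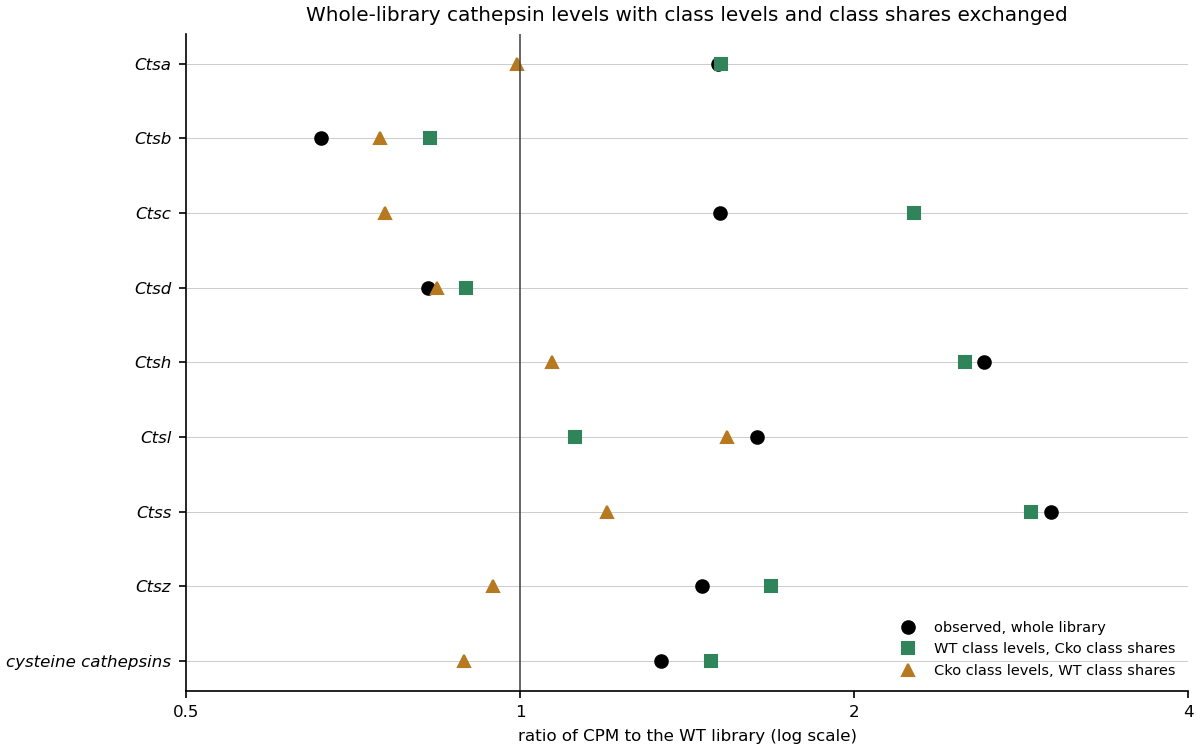
Cko to WT ratio (log axis) of each cathepsin and of the cysteine cathepsin sum over whole libraries, as observed, with WT class levels and Cko class shares, and with Cko class levels and WT class shares. For *Ctss* the observed ratio of 3.01 lies near the shares-only value of 2.89, whereas levels alone give 1.197.

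The neighbours of the cathepsins in the lysosomal pathway were taken from lists. In neutrophil-like cells, 0 of 14 lysosomal hydrolases and membrane proteins, 0 of 3 lysosomal sorting genes, 0 of 3 cathepsin C substrates and 0 of 3 other cystatin-type inhibitors with enough UMIs passed 1.5-fold between the libraries. At the share of all genes, 8.07%, few would in lists of this size. Within immature cells 5.81% of 3991 genes passed the fold. Of the 3 inhibitors, 1 was lower there, *Cstb* (48.0 to 31.2 CPM, 0.649), and 1 higher, *Cst7* (8.86 to 13.4 CPM, 1.52, 0.988 to 2.38). Of 2 other cathepsins, *Ctse*, an aspartic protease, was lower in the Cko (17.4 to 5.95 CPM, 0.34). *Ctse* was an erythroid gene here, at 534 CPM (WT) and 358 CPM (Cko) in erythroid-like cells, and it was lower in pro/pre-B-like (0.248) and monocyte-like cells (0.111) as well. Its part in these classes that comes from erythroid RNA was not tested. *Cst3*, the secreted cystatin C, was 326 CPM (WT) and 346 CPM (Cko), and *Cstb*, the stefin B gene, 51.6 and 44.6. Both were far higher in monocyte-like cells, *Cst3* at 2199 and 1867 CPM and *Cstb* at 344 and 338. Unlike the *Stfa* genes, these inhibitors and the cysteine cathepsins were higher in the monocyte-like than in the neutrophil-like class.

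In monocyte-like cells 5.4% of all genes were lower and 3.34% higher in the Cko by the fold. 3 of 6 class II genes were lower, namely *Cd74*, the invariant chain that cathepsin S cleaves (123 to 51.1 CPM, 0.41), *H2-Aa* (54.5 to 12.4 CPM, 0.23) and *H2-Ab1* (50.4 to 10.3 CPM, 0.20). *H2-DMb1* was higher (1.501). These genes were concentrated in the unnamed cluster, where *Cd74* was 5453 CPM (WT) and 3454 CPM (Cko), and the part that its separation from the monocyte-like cells plays here was not tested. Of the cathepsin C substrates 1 of 3, *Ctsg*, was lower (297 to 196 CPM, 0.66), *Elane* was 0.70 and *Prtn3* 0.94. Of 14 lysosomal genes 1 was lower (*Lipa*, 0.63), a share near that of all genes, and of 3 sorting genes 1 was higher (*Sort1*, 1.53).

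Genes with the most similar pattern to each cathepsin were found by Pearson's r of log2(CPM + 10) over 24 points of class and library, among 5870 genes. *Ctss* was most like *Pld4* (0.942), *Irf5* (0.936) and *Ifi30* (0.908), *Ctsc* like *Stard3nl* (0.931), *Npc2* (0.923) and *Rassf4* (0.917), and *Ctsa* like *Fam174a* (0.937), *Npc2* (0.920) and *Ctsc* itself (0.916). *Ctsh* was most like *Stx7* (0.930), *Ctsl* like *Pros1* (0.938), *Ctsz* like *Nrros* (0.923) and *Ctsb* like *Ftl1* (0.883). *Ctsd* had the weakest partner, *Rab8b* (0.828), and was nearly unrelated to *Ctss* (0.06). Among the 8 genes, *Ctsc* and *Ctss* (0.897) and *Ctsc* and *Ctsz* (0.838) were close as well. *Stfa1* ranked 1445th for *Ctsh* (r = 0.24) and 5771st for *Ctsl* (−0.43), with the other 6 cathepsins between these places.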

How the data were processed

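BMCs of 1 WT and 1 Cko mouse (postnatal day 21) were profiled on the Chromium Single Cell 3′ v2 platform after lysis of red blood cells. The deposited values are UMI counts, whole numbers for each gene and barcode, made by the authors with Cell Ranger (version not given in the sources used here) on GRCm38. No gene is listed whose highest count in any cell was under 4 UMIs, so unlisted genes were not read as 0. 8 of 11 *Stfa*-family genes were listed (*BC117090*, *Csta1* and *Csta* were not analysed here).

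Cells with at least 200 genes were kept. Scrublet (scanpy 1.11.5) called 127 WT (2.03%) and 51 Cko (1.39%) cells as doublets, which were kept. Both libraries were clustered together in Seurat 5.3.0 (2000 variable genes, 20 components, 20 neighbours, resolution 0.8), without cathepsin, *Stfa* and cystatin genes. A cluster was named from at least 3 markers. The GMP-like and unnamed clusters were kept apart after the clusters were seen. Levels are given for classes of at least 20 cells in a library. Ratios have exact conditional 95% intervals, and genes with at least 100 UMIs in a class over both libraries were counted against a fold of 1.5. Genes named as similar were the 3 highest correlations per cathepsin. The interval code was checked on simulated Poisson counts of whole classes. These leave out the uneven spread of UMIs over cells, so the check covers the code and not that spread. The members and lists were chosen with earlier results of these data known.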

Additional observations from a re-analysis of the deposited data

Results flagged for a closer look

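*Ctsd* and *Ctsz* had Cko/WT ratios on opposite sides of 1 in different cell classes, each with a counting interval that leaves out 1. The differences between classes were not tested, since each genotype is 1 library. For *Ctsd* the ratio was 1.385 in mature neutrophil-like cells and 0.838 in immature neutrophil-like, 0.764 in erythroid-like and 0.760 in stem and progenitor-like cells. For *Ctsz* it was 1.590 in B cell-like cells, against 0.906 in *Mpo*-led GMP-like, 0.708 in monocyte-like, 0.732 in unnamed and 0.445 in mature neutrophil-like cells. The B cell-like value rests on 38 and 55 UMIs, together under the 100 required elsewhere. Of the 74 B cell-like cells of each library, 47 in the WT and 36 in the Cko fell into a neutrophil-like class at a resolution of 1.2, and 47 and 7 with each library clustered on its own, so this class was not stable.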

How the results depend on the processing

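No paired analysis was possible because each genotype has 1 library and no result comes from a test. Summed cysteine cathepsins stayed below the WT in neutrophil-like cells under all 8 alternatives (log2 −0.29 to −0.17, the lowest, −0.29, at a resolution of 1.2, where the neutrophil-like class took in 120 WT and 22 Cko erythroid-like cells). In monocyte-like cells the log2 ratio was −0.028 at a resolution of 0.4 and 0.032, on the other side of 0, with each library clustered on its own. Under both settings all or nearly all cells of the unnamed cluster fell into the monocyte-like class (47 WT and 282 Cko cells at 0.4, 45 and 276 on their own). The log2 neutrophil to monocyte ratio of the sum was −3.39 and −3.40 in the Cko under these settings and −3.04 in the WT at 1.2. The number of cathepsins past 1.5-fold in neutrophil-like cells was 2 at a resolution of 1.2 and with separate clustering (*Ctsb*, *Ctss*), 2 with the gene families kept and with 500 genes per cell (*Ctsb*, *Ctsz*), and 1 (*Ctsb*) with doublets removed or CPM without hemoglobin genes. The *Ctsb* log2 ratio was −0.82 to −0.56. Of the other values, 117 moved by less than their counting interval and 11 by more. Depth limits *Ctsc*, *Ctsl* and *Ctss* in neutrophil-like cells.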
